A study of Caenorhabditis elegans with 44 samples.

Results

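Genes of the insulin-like signaling pathway of Caenorhabditis elegans were followed in whole young adults after loss of the heat shock factor HSF-1 from the germline. The members were chosen by name: daf-2, age-1, pdk-1, akt-1, akt-2, sgk-1, daf-18, daf-16 and pqm-1. They make up 9 of the 11430 genes listed over the deposited tables, and all 9 were listed and tested at 8, 16 and 24 h. Strain JTL621, called HSF-1-AID, has hsf-1::aid::gfp, a fusion of the hsf-1 gene with an auxin-inducible degron and GFP. It also carries unc-119(ed3) and the transgene ieSi38, in which the sun-1 promoter drives TIR1::mRuby in the germline. TIR1 is a plant F-box protein that directs degron-tagged proteins to degradation when auxin is present. Strain CA1199, called TIR1-only, shares unc-119(ed3) and ieSi38 with it but has no tagged hsf-1. Animals grew for 51 h, and about 120 were then picked for each condition onto auxin plates or ethanol (vehicle) plates. The groups at each time were HSF-1-AID on auxin, HSF-1-AID on ethanol, TIR1-only on auxin and TIR1-only on ethanol, with 4 libraries a group at 8 and 16 h and 3 at 24 h. All animals were labelled young adults. Every sample title in all groups carries the label NHS, read here as no heat shock, and the same temperature is listed for every sample.

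In this pathway, insulin-like peptides bind the receptor DAF-2, which activates the phosphoinositide 3-kinase AGE-1. The lipid it makes recruits PDK-1, which activates the kinases AKT-1, AKT-2 and SGK-1, and the AKT kinases hold the FOXO transcription factor DAF-16 in the cytoplasm. DAF-18 is a phosphatase that removes the lipid and so opposes AGE-1. PQM-1 is a zinc finger transcription factor that is nuclear when DAF-16 is not. The pathway is best known for its control of dauer formation, lifespan and stress resistance, in part together with HSF-1, and in the germline it acts on stem cell proliferation and oocyte growth.

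Poly(A) RNA of whole animals was sequenced, and levels are given in CPM (reads of a gene scaled to a library size that the authors had adjusted by normalization). Scaling to total reads, used below as an alternative, leaves that adjustment out. Between 12.5 and 50.7 M reads were counted in each library of 8 h, between 31.01 and 57.7 M in those of 16 h, and between 13.3 and 24.4 M in those of 24 h. The 4 libraries numbered 4 at 8 h were the deepest, with at least 44.7 M against at most 26.9 M in the others. Reads of rRNA genes took 1.26% to 31.4% of a library at 8 h, 1.16% to 3.42% at 16 h and 3.78% to 18.3% at 24 h. The hsf-1 transcript was at 46.9 ± 5.30 CPM in HSF-1-AID animals on auxin and 45.8 ± 7.62 CPM on ethanol at 8 h (SD, n = 4 each). It was higher on auxin at 16 h (70.8 ± 1.16 against 51.2 ± 3.34 CPM, n = 4 each, adjusted p = 1.24e-06) and at 24 h (77.3 ± 3.43 against 53.8 ± 6.15 CPM, n = 3 each, adjusted p = 0.000567). Auxin acts on the tagged protein, so the transcript is no measure of the depletion. On ethanol hsf-1 was also lower in HSF-1-AID than in TIR1-only animals at 16 h, at 51.2 ± 3.34 against 67.9 ± 2.45 CPM (n = 4 each, adjusted p = 0.00203). At 24 h it was at 53.8 ± 6.15 against 69.6 ± 5.02 CPM (n = 3 each). Every HSF-1-AID ethanol library lay below every TIR1-only one there, but limma made no call (unadjusted p = 0.00131). TIR1-only animals on auxin had 65.9 ± 3.33 CPM at 16 h and 68.8 ± 1.16 CPM at 24 h.

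Levels of the pathway genes were compared with each other per kilobase of merged exons, since longer transcripts collect more reads. The order began with the phosphatase gene daf-18, then the kinase gene akt-1, then age-1 and then daf-16 in all 12 groups. At 24 h daf-18 stood at 112 ± 9.52 CPM per kb in HSF-1-AID animals on auxin, 207 ± 16.0 on ethanol, 205 ± 8.78 in TIR1-only animals on auxin and 212 ± 3.39 on ethanol (SD, n = 3 each). The other Akt gene, akt-2, had the lowest mean in all 12 groups, at 1.90 to 2.47 CPM per kb, while akt-1 had means of 66.6 to 93.2. The ranges of akt-2 and pdk-1 overlapped in TIR1-only animals on ethanol at 8 h and in HSF-1-AID animals on auxin at 24 h. The ranges of daf-18 and akt-1 did not overlap within any group, and neither did those of akt-1 and age-1. The ranges of age-1 and daf-16 overlapped in all 4 groups at 8 h, in none at 16 h, and at 24 h in HSF-1-AID animals on auxin and TIR1-only animals on ethanol. With the length of the longest transcript in place of merged exons, daf-16 came before age-1 in every group except TIR1-only auxin at 24 h. The receptor gene daf-2 and pqm-1 followed in overlapping ranges at 8 and 16 h, and then came sgk-1 and pdk-1. At 24 h pqm-1 stood below sgk-1 in every group, and its range overlapped that of pdk-1. Levels were not tested between times, because the authors normalized each time on its own.

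**Figure D1:**
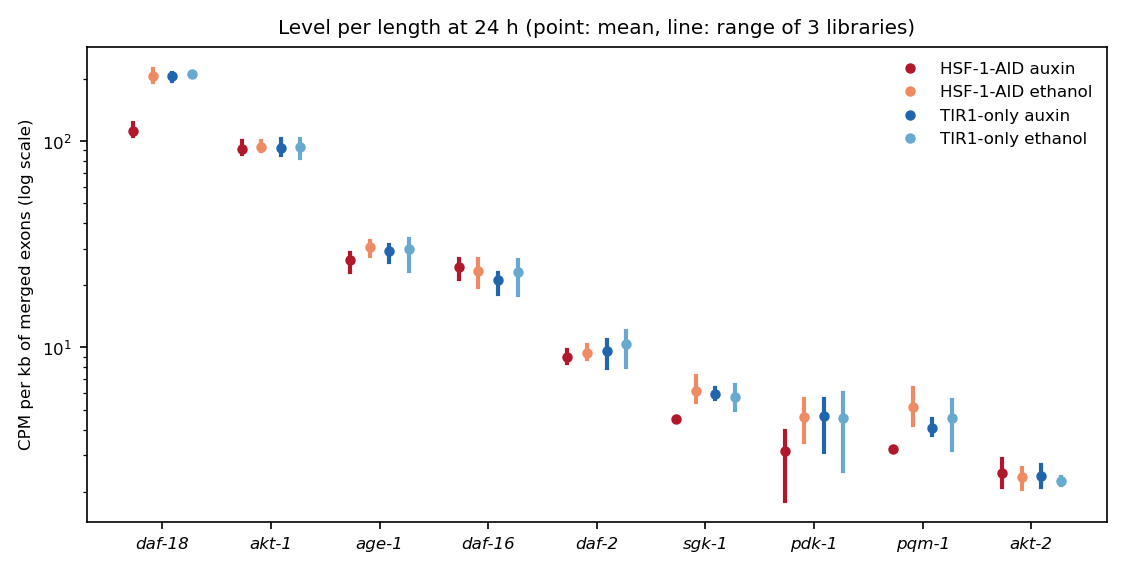
Level at 24 h in CPM per kb of merged exons (log scale) for the 9 genes, with points for group means and lines for the range of 3 libraries. The daf-18 mean lies at 112 in HSF-1-AID animals on auxin and between 205 and 212 in the other groups. The mean of akt-2 is the lowest in every group, and its range overlaps that of pdk-1 in HSF-1-AID animals on auxin.

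Positions are those of build WBcel235. The receptor gene daf-2 (WBGene00000898) lies on chromosome III at 2994514 to 3040846, minus strand, with 7 annotated transcripts. The kinase genes are age-1 (WBGene00000090, chromosome II, 11519328 to 11527054, minus), pdk-1 (WBGene00003965, chromosome X, 1321344 to 1327986, plus), akt-1 (WBGene00000102, chromosome V, 10248905 to 10252845, plus), akt-2 (WBGene00000103, chromosome X, 14147700 to 14152070, plus) and sgk-1 (WBGene00004789, chromosome X, 16254842 to 16262122, minus). The phosphatase gene daf-18 (WBGene00000913) has 1 annotated transcript at 420011 to 425177 on chromosome IV, minus strand. The FOXO gene daf-16 (WBGene00000912, chromosome I, 10750498 to 10776703, plus) has 11 annotated transcripts, which a table of 1 value per gene cannot separate. The pqm-1 gene (WBGene00004096) has 1 transcript at 11150391 to 11152595 on chromosome II, minus strand. Exons of genes on the opposite strand overlap 4.89% of the exon length of age-1, 2.28% of daf-16, 0.62% of pdk-1 and 0.35% of akt-1. The strand setting of the counting is not given in the sources used here, so reads from these stretches cannot be assigned to 1 of the overlapping genes.

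Auxin against ethanol in the HSF-1-AID strain, called depletion below, gave no called gene among the 9 after 8 h, 1 after 16 h and 3 after 24 h, all of them lower. At 8 h none of the 9 had an unadjusted p under 0.05 in limma either. A gene was called at a Benjamini-Hochberg adjusted p under 0.05 from limma, adjusted over all genes tested. This fit took no account of replicate numbers, and the calls at 24 h with the replicate number in the model are given further below. Over all genes tested, 0.283% were called at 8 h, 42.2% at 16 h and 38.4% at 24 h. Called in the lower direction were 19.8% of all genes at 16 h and 20.2% at 24 h, and in the higher direction 22.3% and 18.2%. The median log2 fold change of the 9 genes was -0.02 at 8 h, -0.08 at 16 h and -0.21 at 24 h, beside -0.01, -0.03 and -0.01 over all genes tested. Groups on auxin and ethanol did not overlap for 0, 1 and 3 of the genes at 8, 16 and 24 h, beside 3.38%, 40.0% and 49.4% of all genes.

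**Figure D2:**
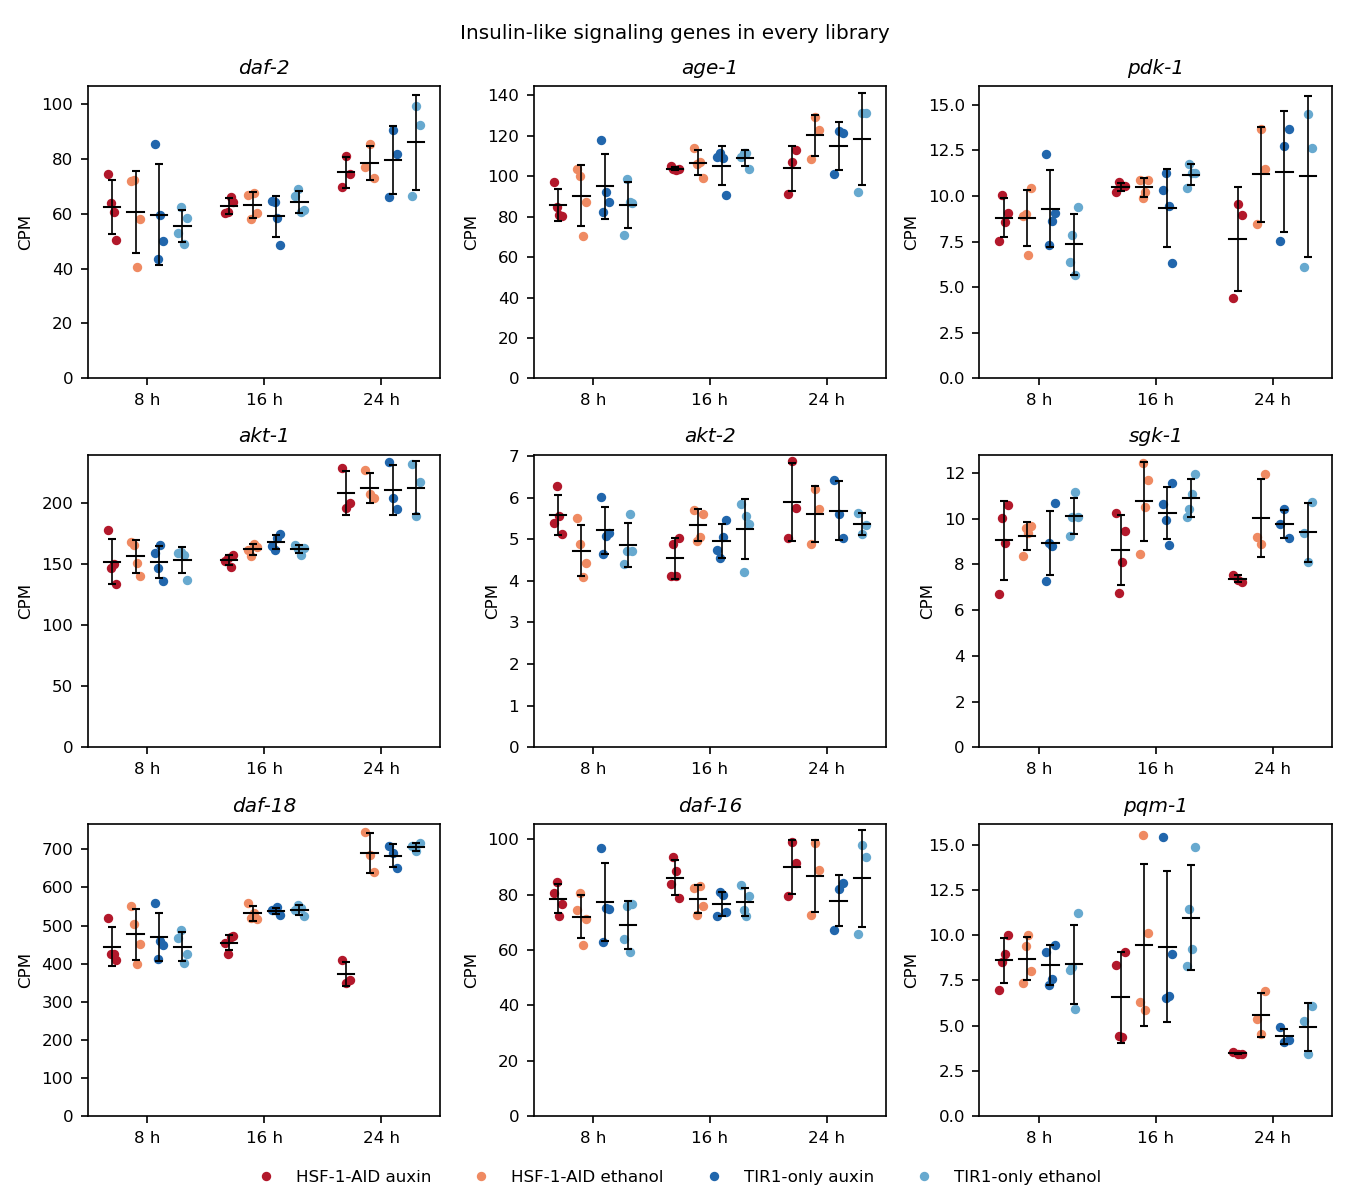
CPM of the 9 genes in every library (points) at 8, 16 and 24 h, with bars for the group mean and SD, for the 4 groups of strain and treatment. The HSF-1-AID auxin libraries of daf-18 lie below the other groups at 16 and 24 h, while those of daf-2, akt-1 and daf-16 lie among them at 24 h.

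The gene that stood out was daf-18, which encodes the phosphatase that opposes AGE-1. At 8 h it was at 521, 426, 425 and 408 CPM in HSF-1-AID animals on auxin, against 551, 505, 399 and 451 CPM on ethanol. The groups overlapped, and the log2 fold change was -0.09 ± 0.122 (SE, adjusted p = 0.995). At 16 h its level was 454, 427, 469 and 472 CPM on auxin, against 558, 519, 532 and 518 CPM on ethanol. Every auxin library was below every ethanol library, and daf-18 fell by 0.22 ± 0.0390 on the log2 scale (SE, adjusted p = 0.000283). TIR1-only animals at 16 h had 540.0, 539.6, 548 and 526 CPM on auxin, against 542, 555, 546 and 524 CPM on ethanol. These groups overlapped (log2 fold change -0.01 ± 0.0390, adjusted p = 0.944).

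At 24 h daf-18 was at 409, 350.2 and 358 CPM in HSF-1-AID animals on auxin, against 746, 684 and 639.7 CPM on ethanol. It fell by 0.89 ± 0.0887 on the log2 scale (SE, adjusted p = 6.27e-06), to 0.540 times the ethanol level with a 95% interval of 0.472 to 0.616. In TIR1-only animals it was at 709, 689 and 652 CPM on auxin, against 707, 694 and 717 CPM on ethanol. All 9 libraries of the other groups lay above the 3 HSF-1-AID auxin libraries, and the TIR1-only groups overlapped each other (log2 fold change -0.05 ± 0.0887, adjusted p = 1.0). The auxin effect on daf-18 differed between the strains by -0.21 ± 0.0552 log2 units at 16 h (adjusted p = 0.00879) and by -0.84 ± 0.125 at 24 h (adjusted p = 0.000432). RNA came from whole animals, so fewer daf-18-expressing cells and less daf-18 RNA per cell cannot be told apart.

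Some markers of the germline and of embryos were also called in depletion at 16 and 24 h. The summed level of 16 germline markers was 5416 to 6819 CPM in HSF-1-AID animals on auxin at 24 h, against 8721 to 10200 CPM on ethanol. TIR1-only animals had 8145 to 10360 CPM on auxin and 7947 to 10980 CPM on ethanol. Of the 16 markers, 7 fell and 2 rose in depletion at 24 h, beside 20.2% and 18.2% of all genes. At 16 h 5 fell and 4 rose, beside 19.8% and 22.3% of all genes. The median log2 fold change of the germline markers was 0.000563 at 16 h and -0.226 at 24 h. In HSF-1-AID animals at 16 h their sums overlapped, at 8323 to 8986 CPM on auxin and 8886 to 9816 CPM on ethanol. Of these markers oma-2, which encodes a zinc finger protein of maturing oocytes, fell at 24 h. It was at 278 ± 32.98 CPM on auxin, against 792 ± 34.1 CPM on ethanol (SD, n = 3 each). Its relative oma-1 fell to 296 ± 18.8 against 492 ± 22.95 CPM. The synapsis gene syp-1 rose to 113 ± 8.68 against 67.3 ± 1.19 CPM, and the P granule helicase gene glh-1 rose to 857 ± 43.9 against 655 ± 27.8 CPM. The 3 embryo markers listed at 24 h, of a list of 10, summed to 5.36 to 6.66 CPM on auxin, against 21.3 to 25.9 CPM on ethanol, and all 3 fell. At 8 h no germline or embryo marker passed the test or had an unadjusted p under 0.05 in limma. The part of these shifts in the fall of daf-18 was not tested.

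**Figure D3:**
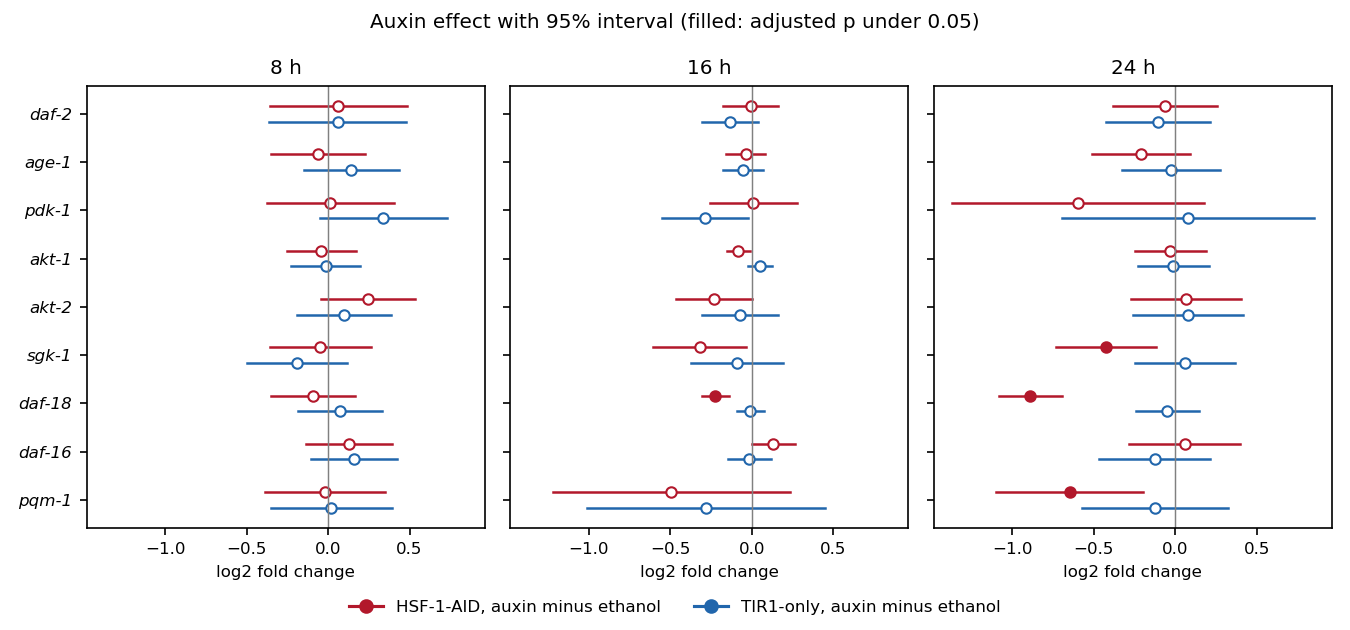
Log2 fold change of auxin over ethanol with its 95% interval for the 9 genes at 8, 16 and 24 h, in the HSF-1-AID strain (red) and the TIR1-only strain (blue), with filled points for an adjusted p under 0.05. Filled points are daf-18 at 16 h and daf-18, sgk-1 and pqm-1 at 24 h, all in the HSF-1-AID strain and all below 0. The fit took no account of replicate numbers.

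At the top of the pathway, the receptor gene daf-2 gave no call in depletion. Its means were 62.4, 62.8 and 75.0 CPM on auxin at 8, 16 and 24 h, against 60.7, 63.2 and 78.4 CPM on ethanol. The log2 fold change at 24 h was -0.06, and its 95% interval ran from -0.38 to 0.25. The PI3K gene age-1 was at 91.3, 107 and 113 CPM in HSF-1-AID animals on auxin at 24 h, against 109, 129 and 123 CPM on ethanol, and the groups overlapped. Its log2 fold change of -0.21 ± 0.139 (SE) gave an adjusted p of 0.256.

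The kinase gene pdk-1 was at 4.38, 9.59 and 8.95 CPM in HSF-1-AID animals on auxin at 24 h, against 8.49, 13.7 and 11.46 CPM on ethanol. In TIR1-only animals it was at 7.54, 12.8 and 13.7 CPM on auxin, against 6.12, 14.5 and 12.62 CPM on ethanol. The library numbered 1 was the lowest in every group, and the groups overlapped. Libraries that share a replicate number deviated together at 24 h over all genes. Over the 4 groups the libraries numbered 1, 2 and 3 averaged 6.63, 12.63 and 11.7 CPM for pdk-1, 98.3, 122 and 122 CPM for age-1, 71.3, 94.4 and 89.5 CPM for daf-16 and 230.1, 199 and 204 CPM for akt-1. The number 1 libraries thus averaged lowest in pdk-1, age-1 and daf-16 and highest in akt-1.

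**Figure D4:**
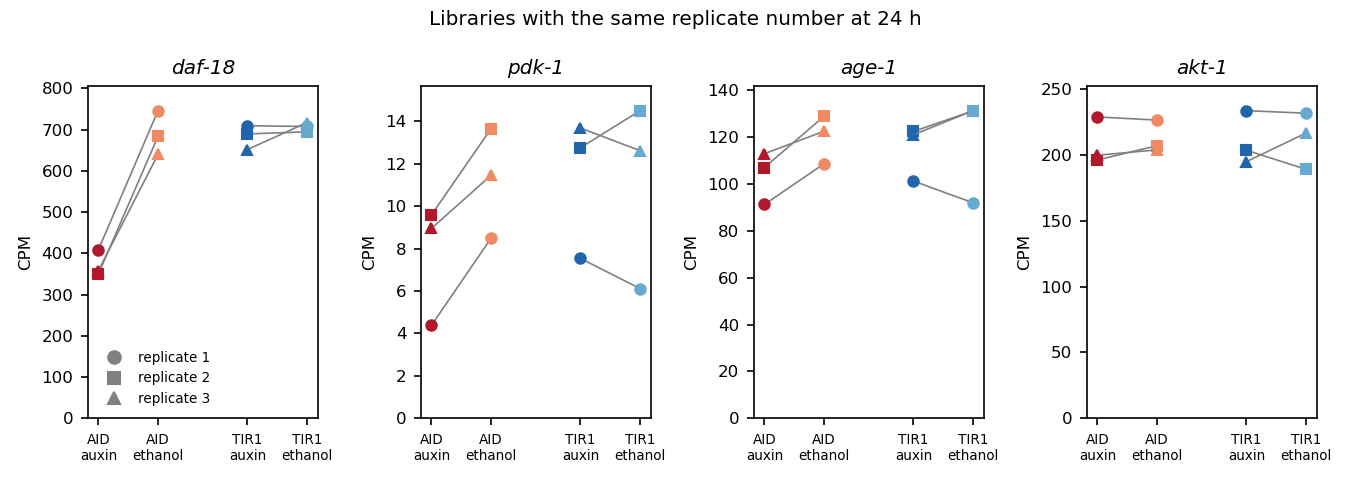
CPM at 24 h of daf-18, pdk-1, age-1 and akt-1, with lines that join the auxin and ethanol libraries of a strain that share a replicate number. Each of the 3 HSF-1-AID lines has its auxin end lower for daf-18, pdk-1 and age-1, and the number 1 libraries of akt-1 lie highest in every group.

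With the replicate number as a block at 24 h, depletion called 5 of the 9 genes in place of 3, beside 54% of all genes. The calls added were pdk-1 (log2 fold change -0.60 ± 0.132 SE, adjusted p = 0.00110) and age-1 (-0.21 ± 0.0646, adjusted p = 0.0109). Without the block, pdk-1 had the same log2 fold change with an SE of 0.358 and an adjusted p of 0.211. Within pairs, auxin minus ethanol for pdk-1 was -0.94, -0.51 and -0.35 log2 units in the HSF-1-AID strain and 0.30, -0.18 and 0.12 in the TIR1-only strain. The within-pair values of age-1 were -0.25, -0.27 and -0.12 in HSF-1-AID animals and 0.14, -0.10 and -0.12 in TIR1-only animals. The blocked fit also called 3 genes in the difference of auxin effects in place of 1, beside 41.6% of all genes. These were daf-18, pdk-1 (-0.67 ± 0.187, adjusted p = 0.00812) and sgk-1 (-0.49, adjusted p = 0.0446).

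Among the kinases that act on DAF-16, akt-1 gave no call in depletion. At 16 h it was at 153, 155, 148 and 158 CPM in HSF-1-AID animals on auxin, against 161, 156, 166 and 164 CPM on ethanol. TIR1-only animals had 165, 161, 171 and 174 CPM on auxin, against 165, 162, 157 and 163 CPM on ethanol. The groups overlapped in both strains. The depletion effect at 16 h was -0.08 log2 units (adjusted p = 0.0614), and the auxin effect differed between strains by -0.13 ± 0.0473 (SE, adjusted p = 0.0454). That call was lost, with adjusted p up to 0.0956, when HSF-1-AID auxin replicate 1, 2 or 3, HSF-1-AID ethanol replicate 1, 3 or 4, TIR1-only auxin replicate 3 or 4 or TIR1-only ethanol replicate 2, 3 or 4 was left out, and with scaling to total reads (-0.24, adjusted p = 0.0788). At 24 h akt-1 was at 208 ± 17.9 CPM on auxin and 212 ± 12.2 CPM on ethanol in HSF-1-AID animals (SD, n = 3 each). The related gene akt-2 was low throughout, with group means between 4.54 and 5.89 CPM. Its largest depletion effect was 0.24 ± 0.137 log2 units at 8 h (adjusted p = 0.995), and at 16 h it was at 4.54 ± 0.489 CPM on auxin and 5.33 ± 0.386 CPM on ethanol.

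The third of these kinase genes, sgk-1, was at 7.54, 7.31 and 7.24 CPM in HSF-1-AID animals on auxin at 24 h, against 9.21, 8.88 and 11.96 CPM on ethanol. Every auxin library was below every ethanol library, and sgk-1 fell by 0.43 ± 0.142 on the log2 scale (SE, adjusted p = 0.0304). TIR1-only animals had 9.75, 10.4 and 9.16 CPM on auxin, against 9.36, 8.12 and 10.7 CPM on ethanol, so all of these libraries were above the HSF-1-AID auxin libraries. The auxin effect differed between strains by -0.49 ± 0.200, with an adjusted p of 0.0984. The call in depletion was lost without HSF-1-AID ethanol replicate 3 (log2 fold change -0.29, adjusted p = 0.131), the library with 18.3% rRNA reads, and without HSF-1-AID auxin replicate 1, 2 or 3 (adjusted p = 0.0544, 0.0709 and 0.0758). It was also lost with quantile normalization (-0.26, adjusted p = 0.177) with scaling to total reads (-0.30, adjusted p = 0.163) and with only the HSF-1-AID groups in the model (adjusted p = 0.0507). At 16 h sgk-1 was at 10.2, 6.75, 8.09 and 9.45 CPM on auxin, against 8.46, 12.4, 10.5 and 11.7 CPM on ethanol. These overlapped, with a log2 fold change of -0.32 and an adjusted p of 0.0656.

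Of the transcription factors, daf-16 did not pass the test in depletion at any time. At 16 h it was at 83.7, 93.5, 88.3 and 78.7 CPM in HSF-1-AID animals on auxin, against 82.3, 72.5, 83.1 and 75.9 CPM on ethanol. TIR1-only animals had 72.3, 80.8, 79.8 and 73.6 CPM on auxin, against 83.6, 74.3, 72.2 and 79.4 CPM on ethanol. The groups overlapped in both strains, and the depletion effect was 0.13 ± 0.0627 log2 units (SE, adjusted p = 0.100). At 24 h daf-16 was at 90.0 ± 9.89 CPM on auxin and 86.7 ± 13.1 CPM on ethanol (SD, n = 3 each).

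For pqm-1 the values were 3.53, 3.47 and 3.46 CPM in HSF-1-AID animals on auxin at 24 h, against 5.35, 4.55 and 6.95 CPM on ethanol. Every auxin library was below every ethanol library, and pqm-1 fell by 0.65 ± 0.208 on the log2 scale (SE, adjusted p = 0.0257). TIR1-only animals had 4.91, 4.11 and 4.23 CPM on auxin, against 5.28, 3.46 and 6.08 CPM on ethanol, and 1 of these ethanol libraries was as low as the HSF-1-AID auxin libraries. The difference of auxin effects was -0.53 ± 0.295 (adjusted p = 0.228). The depletion call was lost without HSF-1-AID ethanol replicate 3 (log2 fold change -0.49, adjusted p = 0.112), without HSF-1-AID auxin replicate 1, 2 or 3 (adjusted p = 0.0529, 0.0608 and 0.0611) and with scaling to total reads (-0.52, adjusted p = 0.0647). At 16 h its libraries spread over 4.38 to 9.09 CPM on auxin and 5.86 to 15.5 CPM on ethanol, and the log2 fold change of -0.49 had an SE of 0.344 (adjusted p = 0.264). Intestine markers, from a tissue in which PQM-1 is known to act, were 5 lower and 0 higher of 12 at 24 h. Over all genes, 20.2% were called lower and 18.2% higher. With scaling to total reads only asp-1, pept-1 and pho-1 of these markers stayed called lower, and the block added act-5, cpr-6 and ifb-2. These fits called 34.0% and 54% of all genes in either direction. The summed level of the 12 intestine markers was 22540 to 48340 CPM in HSF-1-AID animals on auxin and 39280 to 51910 CPM on ethanol. The part of these markers in the fall of pqm-1 was not tested.

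Auxin in the TIR1-only strain called none of the 9 genes at any time by limma, beside 0.246%, 0.147% and 0.00961% of all genes at 8, 16 and 24 h. An unadjusted p under 0.05 was found for 1 gene, pdk-1 at 16 h (log2 fold change -0.29). Its auxin libraries were at 10.3, 11.3, 9.46 and 6.33 CPM, against 10.4, 11.8, 11.3 and 11.3 CPM on ethanol, and replicate 4 on auxin was the lowest. The difference of auxin effects called none at 8 h, akt-1 and daf-18 at 16 h and daf-18 at 24 h, beside 0.00911%, 29.6% and 24.1% of all genes. On ethanol the strains were compared without auxin. There limma called none of the 9 at 8, 16 or 24 h, beside 0.00911%, 0.0295% and 0.00961% of all genes. None of the 9 had an unadjusted p under 0.05 in limma.

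HSF-1-AID animals on auxin were also set against the mean of the 3 other groups of a time, a comparison chosen after seeing the data and sharing the HSF-1-AID libraries with depletion. At 16 h it called 4 of the 9 genes, beside 51.2% of all genes. These were akt-1 (log2 fold change -0.10, adjusted p = 0.00698), sgk-1 (-0.31, adjusted p = 0.0272), daf-18 (-0.24, adjusted p = 1.46e-05) and, the only one higher, daf-16 (0.15, adjusted p = 0.0223). At 24 h it called sgk-1, daf-18 and pqm-1, beside 46.5%, and at 8 h none, beside 0.201%. The fold changes in the authors' deposited table lay closest to this comparison, with a median absolute difference of 0.00173 log2 units over genes at 16 h, against 0.0226 for depletion. At an FDR under 0.05, the authors' deposited table called the same 4 genes at 16 h, the same 3 at 24 h and none at 8 h, beside 50.0%, 49.6% and 0.109% of all genes. For daf-18 the authors' deposited table gave a log2 fold change of -0.24 at 16 h and -0.90 at 24 h.

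Partners of the pathway were called in both directions at 16 and 24 h, as were genes at large. Of 25 tested partners, 10 rose and 3 fell in depletion at 16 h, beside 22.3% and 19.8% of all genes. At 24 h 4 rose and 2 fell, beside 18.2% and 20.2% of all genes. At 8 h limma called none of 26, and none had an unadjusted p under 0.05. The list's median log2 fold change was 0.12 at 16 h and 0.06 at 24 h, beside -0.03 and -0.01 over all genes tested. The importin gene imb-2, whose product carries DAF-16 into the nucleus, rose to 327 ± 9.62 CPM on auxin at 16 h, against 237 ± 8.06 CPM on ethanol (SD, n = 4 each). At 24 h it rose to 367 ± 15.8 against 251 ± 11.6 CPM (n = 3 each), a log2 fold change of 0.55 ± 0.103 (SE, adjusted p = 0.00102). The PI3K adaptor subunit gene aap-1 rose to 102 ± 4.16 against 78.9 ± 2.74 CPM at 16 h and to 126 ± 8.01 against 96.0 ± 6.44 CPM at 24 h. Also higher at both times were rle-1, which encodes a ubiquitin ligase of DAF-16, and math-33, which encodes a deubiquitinase of DAF-16. At 16 h ist-1, the insulin receptor substrate gene, skn-1, smk-1, shc-1, eak-7 and ddl-2 rose as well, and at 24 h these did not pass the test. With the block eak-7, skn-1 and smk-1 were called higher at 24 h too, and with scaling to total reads so were eak-7 and skn-1. In the difference of auxin effects 10 partners were higher and 2 lower at 16 h, and 3 higher and 1 lower at 24 h. Of all genes, 29.6% and 24.1% were called there in either direction.

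The sirtuin gene sir-2.1 fell to 67.4 ± 0.988 CPM on auxin at 16 h, against 76.98 ± 1.10 CPM on ethanol (SD, n = 4 each). So did ddl-1, which encodes an inhibitory partner of HSF-1, at 19.2 ± 1.42 against 22.8 ± 1.17 CPM. The gene of an AMP-activated kinase catalytic subunit, aak-2, fell at both times, by 0.75 ± 0.157 on the log2 scale at 24 h (SE, adjusted p = 0.00215), with 17.4 ± 2.09 CPM on auxin and 29.6 ± 6.41 CPM on ethanol. The TFEB homologue hlh-30 fell to 13.8 ± 1.98 against 20.9 ± 3.47 CPM at 24 h (adjusted p = 0.0296), a call lost without HSF-1-AID auxin replicate 1 or 3 or HSF-1-AID ethanol replicate 2 or 3 (adjusted p = 0.106, 0.0608, 0.0865 and 0.112) and with quantile normalization (adjusted p = 0.0799). The block raised the list's counts at 24 h to 7 higher and 4 lower. It raised the share of all genes called in either direction from 38.4% to 54%.

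The TOR kinase branch receives signals from the insulin-like pathway and from nutrients. Of its 10 genes, 5 rose and 2 fell at 16 h, beside 22.3% and 19.8% of all genes. At 24 h 2 rose and 2 fell, beside 18.2% and 20.2% of all genes. At 8 h none of the 10 was called or had an unadjusted p under 0.05 in limma. The TOR kinase gene let-363 rose to 170.1 ± 4.24 CPM on auxin at 16 h, against 138 ± 5.25 CPM on ethanol (SD, n = 4 each), and to 233 ± 28.6 against 188 ± 12.5 CPM at 24 h (n = 3 each, adjusted p = 0.0255). The Raptor gene daf-15 rose to 194 ± 3.53 against 161 ± 8.88 CPM at 16 h, and the S6 kinase gene rsks-1 to 186.2 ± 4.33 against 157 ± 9.74 CPM at 24 h (adjusted p = 0.0446). The fallers were the Rag GTPase gene raga-1, at 99.9 ± 6.37 against 143 ± 11.3 CPM at 24 h, and the LST8 gene mlst-8, at 35.1 ± 2.96 against 52.3 ± 2.11 CPM (adjusted p = 0.000716 and 0.000291). The call of let-363 at 24 h was lost without HSF-1-AID auxin replicate 1 or 3 or HSF-1-AID ethanol replicate 2 or 3 (adjusted p = 0.0971, 0.079, 0.0526 and 0.0998). That of rsks-1 was lost without HSF-1-AID auxin replicate 1, 2 or 3 or HSF-1-AID ethanol replicate 1 or 3 (adjusted p = 0.0922, 0.071, 0.108, 0.105 and 0.138) and with quantile normalization (adjusted p = 0.0692). The fall of raga-1 at 24 h was lost with scaling to total reads (adjusted p = 0.0542). With the block, 5 rose and 3 fell at 24 h, beside 54% of all genes called in either direction. In the difference of auxin effects 4 TOR genes were higher and 3 lower at 16 h, and none higher and 2 lower at 24 h. Of all genes, 29.6% and 24.1% were called there in either direction. At 24 h let-363 had an adjusted p of 0.0661 in that difference and rsks-1 of 0.187.

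**Figure D5:**
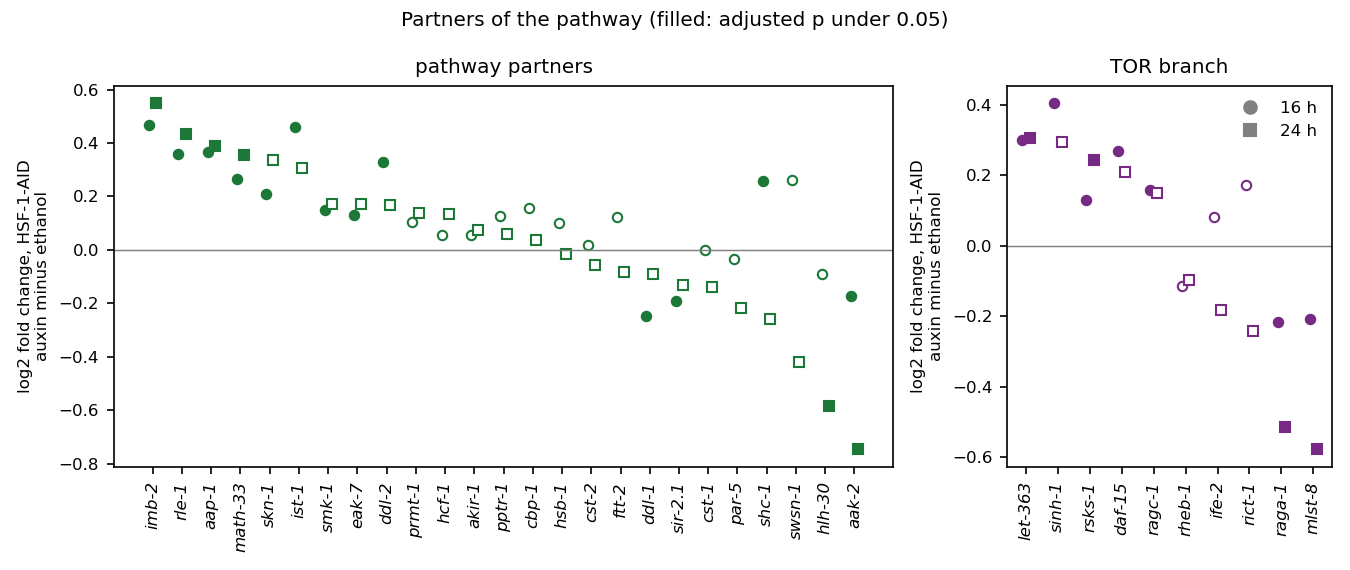
Log2 fold change in depletion at 16 h (circles) and 24 h (squares) of the pathway partners and the TOR branch, ordered by the value at 24 h, with filled symbols for an adjusted p under 0.05. At 24 h imb-2, rle-1, aap-1 and math-33 are filled above 0, aak-2 and hlh-30 are filled below 0, and in the TOR branch let-363 and rsks-1 are filled above 0 and raga-1 and mlst-8 below 0.

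Of a list of 40 ligand genes, the insulin-like peptides, 2 were listed at 8 h, 2 at 16 h and 3 at 24 h. Neither was called at 8 h. The peptide gene ins-34 fell to 1.004 ± 0.391 CPM on auxin at 16 h, against 1.77 ± 0.393 CPM on ethanol (SD, n = 4 each, adjusted p = 0.00782), and to 0.407 ± 0.195 against 1.39 ± 0.0448 CPM at 24 h (n = 3 each, adjusted p = 0.00551). The peptide gene ins-17 fell to 1.58 ± 0.181 against 2.16 ± 0.340 CPM at 16 h (adjusted p = 0.0316), a call lost without HSF-1-AID auxin replicate 1 or 3 or HSF-1-AID ethanol replicate 2 or 3 (adjusted p = 0.0706, 0.0899, 0.0995 and 0.0721) and with quantile normalization (-0.23, adjusted p = 0.311). In the difference of auxin effects no peptide gene was called, with an adjusted p for ins-34 of 0.0861 at 16 h and 0.0511 at 24 h, and for ins-17 of 0.0930 at 16 h. At these levels the prior count added by the authors shrinks the log2 fold changes.

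Genes known to rise through DAF-16 showed no common direction. Of 24 tested at 16 h, 3 rose and 2 fell, beside 22.3% and 19.8% of all genes. Of 23 tested at 24 h, 1 rose and 4 fell, beside 18.2% and 20.2% of all genes. In the difference of auxin effects 1 was higher and 1 lower at 16 h, and none higher and 3 lower at 24 h. Of all genes, 29.6% and 24.1% were called there in either direction. At 8 h limma called none of 23, and 2 had an unadjusted p under 0.05. With the block at 24 h, 4 rose and 7 fell, beside 54% of all genes called in either direction. With scaling to total reads 2 rose and 2 fell, beside 34.0% of all genes called. The list's median log2 fold change was -0.08 at 16 h and -0.01 at 24 h, beside -0.03 and -0.01 over all genes tested. The desiccation protection gene lea-1 rose to 700.4 ± 42.8 CPM on auxin at 16 h, against 416 ± 28.5 CPM on ethanol (SD, n = 4 each, log2 fold change 0.75, adjusted p = 1.63e-07). The folate enzyme gene dao-3 rose to 17.1 ± 1.53 against 13.5 ± 1.22 CPM at 16 h and to 17.5 ± 3.39 against 12.5 ± 1.14 CPM at 24 h (adjusted p = 0.0170). The call at 24 h was lost without HSF-1-AID auxin replicate 2 or 3 or HSF-1-AID ethanol replicate 1 (adjusted p = 0.0816, 0.0589 and 0.0643), and in the difference of auxin effects dao-3 was not called at 16 or 24 h (adjusted p = 0.243 and 0.272). The glutathione S-transferase gene gst-4, the other riser at 16 h, had a log2 fold change of 0.36 in depletion (adjusted p = 0.0102), against 0.64 with auxin alone in the TIR1-only strain (adjusted p = 0.0123).

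Among the same targets, the aquaporin gene aqp-1 fell to 5.70 ± 0.760 CPM on auxin at 24 h, against 10.7 ± 0.801 CPM on ethanol (SD, n = 3 each, adjusted p = 0.000936). At 16 h it fell to 9.14 ± 1.31 against 13.8 ± 2.08 CPM (n = 4 each, adjusted p = 0.0196), which was lost without HSF-1-AID auxin replicate 2 or HSF-1-AID ethanol replicate 4 (adjusted p = 0.0613 and 0.0566) and with quantile normalization (adjusted p = 0.0603). The lysozyme gene lys-7 fell to 71.9 ± 5.04 CPM on auxin at 24 h, by 0.50 ± 0.147 on the log2 scale (adjusted p = 0.0161), which was lost without HSF-1-AID auxin replicate 2 or 3 or HSF-1-AID ethanol replicate 1 (adjusted p = 0.0532, 0.0502 and 0.0579), with scaling to total reads (adjusted p = 0.132) and against the mean of the 3 other groups (-0.25, adjusted p = 0.104). The catalase gene ctl-2 fell to 46.5 ± 2.41 against 53.9 ± 6.29 CPM at 16 h (adjusted p = 0.0431). That call was lost without any of HSF-1-AID auxin replicates 1 to 4 or HSF-1-AID ethanol replicates 2 and 4, with adjusted p up to 0.150, and against the mean of the 3 other groups (adjusted p = 0.0570). In the difference of auxin effects ctl-2 was not called at 16 h (adjusted p = 0.463).

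Of genes known to fall in daf-2 mutants, 3 of 14 fell and none rose at 16 h, and 5 of 15 fell and 1 rose at 24 h. Over all genes, 19.8% fell and 22.3% rose at 16 h, and 20.2% fell and 18.2% rose at 24 h. At 8 h limma called none of 14, and 2 had an unadjusted p under 0.05. The list's median log2 fold change was -0.20 at 16 h and -0.36 at 24 h, beside -0.03 and -0.01 over all genes tested. The list's value at 24 h was -0.01 with quantile normalization. The glucuronosyltransferase gene ugt-62 fell to 76.2 ± 19.9 CPM on auxin at 24 h, against 164 ± 34.4 CPM on ethanol (SD, n = 3 each, adjusted p = 0.000560). The intestinal peptide transporter gene pept-1, also an intestine marker, fell to 26.3 ± 4.93 against 48.7 ± 2.38 CPM (adjusted p = 0.000606). At 16 h dod-23 fell to 35.5 ± 0.803 against 47.3 ± 5.02 CPM (n = 4 each). The riser was dod-17, at 2.13 ± 0.160 against 1.25 ± 0.128 CPM at 24 h (adjusted p = 0.0213). It was lost without HSF-1-AID auxin replicate 1 or 2 or HSF-1-AID ethanol replicate 2 or 3 (adjusted p = 0.0642, 0.0506, 0.0679 and 0.0532). With auxin alone in the TIR1-only strain the log2 fold change of dod-17 was 0.61, and the difference of auxin effects was 0.12 (adjusted p = 0.831). In that difference none of the list was higher, and 1 was lower at 16 h and 2 at 24 h, beside 29.6% and 24.1% of all genes called. With scaling to total reads 2 of the list fell and 2 rose at 24 h, beside 34.0% of all genes called. Of 12 intestine markers 5 also fell at 16 h and 5 at 24 h, beside 19.8% and 20.2% of all genes. The part of these markers in the calls of the list was not tested.

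Across libraries, 3 of the pathway genes varied together. The Pearson r of log2 values, averaged over the 3 tables (16, 16 and 12 libraries), was 0.80 between daf-2 and age-1, 0.74 between age-1 and pdk-1 and 0.74 between daf-2 and pdk-1. It was 0.63 between sgk-1 and pqm-1 and lowest, at -0.50, between pdk-1 and akt-1. Of 9842 genes tested at all times, those most like daf-2 were ubr-5 (mean r 0.94), pbrm-1 (0.92) and F39C12.1 (0.91). Those most like daf-16 were pitr-1 (0.88), tbc-2 (0.84) and C17H11.2 (0.84), and those most like pqm-1 were epg-9 (0.75), C34H4.2 (0.74) and let-756 (0.74). For daf-2, 91 genes had a mean r over 0.8, against 27 for daf-16 and 0 for pqm-1. These values describe libraries that share groups, depth and, at 24 h, replicate numbers.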

How the data were processed

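Whole-animal poly(A) RNA was sequenced in 44 libraries. STAR, featureCounts and edgeR are the tools named in the submitters' processing notes, beside builds WBcel235 and ce11. Versions and the counting strand are not given in the sources used here. The authors' normalized values, 1 deposited table per time, are log2 CPM. The values themselves show that the authors had added 2 reads as a prior count: once it is taken off, 100% of them are whole reads within 0.05 of a read. The authors' deposited comparison tables give each gene a log2 fold change, a score and p-values with FDR, and state no contrast.

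Linear CPM (prior removed) was computed for levels. Genes with at least 1 CPM in 4 libraries (8 and 16 h) or 3 (24 h) were fitted with limma 3.58.1 (trend) in R 4.3.3. The 4 groups of a time shared a model with 12, 12 and 8 residual degrees of freedom. All tests are two-sided, and p-values were adjusted by Benjamini-Hochberg over 10971, 10173 and 10411 genes. The procedure was tested on simulated data with independent libraries and few changed genes. These lacked the shared deviations of libraries with the same replicate number, so the test does not cover them. The plan had allowed for linear values or counts, and no pseudocount was added to the log2 values. Intervals are 95% intervals of the fit and rest on the spread between libraries. The part of read counting in that spread was not tested. The members, the lists and the rules were chosen with earlier results of these data known. Named genes are all 9 members, hsf-1, up to 2 called genes per list and direction with the smallest adjusted p in depletion at 16 and at 24 h, and the 3 genes most like daf-2, daf-16 and pqm-1. Other called genes of a list are counted, and some of them are named.

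Over 60 pairs of replicates, none were copies (chi-square per gene at least 5.01). Nothing in the labels ties replicates to separate cultures, and p-values therefore cover the spread among these libraries, which may be technical. Deviations of libraries with the same replicate number, taken from the data, correlated at 0.18 to 0.53 in every pair at 24 h. At 8 h the correlations ran from -0.41 to 0.74 and at 16 h from -0.31 to 0.71. The main fit took no account of replicate numbers at any time. Fits with the replicate number as a block are given as an alternative to it. Gene positions and lengths are from Ensembl 115 for WBcel235, which held 11425 of 11430 gene IDs. The list symbols ins-38 and sodh-1 were not matched.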

Additional observations from a re-analysis of the deposited data

Results flagged for a closer look

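Of 72 groups of 4 libraries looked at for the 9 genes, 3 held a library far from its group, and chance gives about 1 in 20. These were age-1 in TIR1-only auxin replicate 4 at 16 h, low at 90.7 CPM, akt-1 in TIR1-only ethanol replicate 4 at 8 h, low at 137.0 CPM, and daf-18 in HSF-1-AID auxin replicate 1 at 8 h, high at 521 CPM. For akt-1 at 8 h replicate 4 was the lowest library of every group, with 133.4 CPM in HSF-1-AID auxin, 140.3 CPM in HSF-1-AID ethanol and 136.2 CPM in TIR1-only auxin. These 4 libraries were also the deepest of their groups at 8 h, and the part of depth was not tested. The auxin effect differed between the strains for daf-18 at 16 h (-0.21 log2 units) and 24 h (-0.84), and for akt-1 at 16 h (-0.13).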

How the results depend on the processing

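The count of called genes among the 9 in depletion at 16 h was 1, beside 42.2% of all genes, and it became 4 against the mean of the 3 control groups (51.2% of all genes), 2 with quantile normalization (37.2%), 4 with library quality weights (47.9%), and 1 to 3 when single libraries were left out (34.2% to 42.1%; 2 without HSF-1-AID auxin replicate 1 or HSF-1-AID ethanol replicate 1 or 2, 3 without HSF-1-AID auxin replicate 4). At 24 h the count of 3 (38.4% of all genes) became 5 with the replicate block (54%), 1 with scaling to total reads (34.0%), and 2 with quantile normalization or with only the groups of the contrast (without sgk-1, adjusted p = 0.177 and 0.0507), and was 1 to 3 when single libraries were left out. The difference of auxin effects called 2 at 16 h, 1 with scaling to total reads and 1 to 2 without single libraries, and called 1 at 24 h, 3 with the replicate block. The cause of these shifts was not tested. The block changed no member's call at 8 or 16 h, where not every pair of libraries with the same number correlated above 0.1, although their median r was 0.35 at 8 h. The fall of daf-18 in depletion stayed called under all 17 alternatives at 16 h (log2 fold change -0.30 to -0.19) and all 15 at 24 h (-0.96 to -0.76). The comparison with 3 control groups and the total reads scaling were chosen after seeing the data. Scaling to total reads moved the median of all genes by 0.13 in depletion at 24 h (2177 higher and 1360 lower, against 1892 and 2107), by -0.11 in the difference at 16 h and by 0.11 in it at 24 h.

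Values below turned their sign with no call on either side. Library quality weights gave -0.14 for daf-2 and -0.094 for hsf-1 in depletion at 8 h, and hsf-1 was also -0.094 against the 3 control groups. With quantile normalization at 16 h, daf-18 was 0.072 in auxin alone and 0.029 between strains on ethanol, while akt-2 was 0.019 and age-1 -0.080 in the difference. With total reads at 16 h, auxin alone gave 0.065 for daf-18, 0.020 for age-1 and 0.060 for daf-16, strain on ethanol gave 0.062 for akt-1, 0.035 for daf-18 and 0.030 for age-1, and the difference gave -0.093 for age-1. Total reads gave 0.099 for akt-1 in depletion at 24 h. Over the fits without single libraries, age-1 in auxin alone at 16 h ran from -0.084 to 0.016 (above 0 without TIR1-only auxin replicate 4), and pdk-1 in auxin alone at 24 h from -0.30 to 0.34. Between strains on ethanol at 24 h, pdk-1 ran from -0.30 to 0.32, age-1 from -0.13 to 0.12, daf-16 from -0.16 to 0.15 and pqm-1 from -0.033 to 0.36. The lowest of these came without TIR1-only ethanol replicate 1, except for age-1 at 16 h (TIR1-only auxin replicate 2) and pqm-1 (TIR1-only ethanol replicate 2). Of 1890 alternative values of single members, 1831 kept sign and call, or turned sign by less than their SE. The edgeR and DESeq2 alternatives were not run on the log2 values.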

Other observations

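Markers of other tissues were looked at in depletion as well. Of 9 muscle markers limma called none at any time, and none had an unadjusted p under 0.05. Over all genes 0.283%, 42.2% and 38.4% were called at 8, 16 and 24 h. With the replicate block 4 muscle markers were called higher at 24 h, among them the myosin gene unc-54. The block called 54% of all genes in either direction. Of 10 neuronal markers 4 were called higher at 24 h, beside 18.2% of all genes, and none at 8 or 16 h. By unadjusted p under 0.05 from limma, 0 would pass at 8 h and 1 at 16 h. The dense core vesicle priming gene unc-31 rose to 2.32 ± 0.544 CPM on auxin, against 0.721 ± 0.316 CPM on ethanol (SD, n = 3 each, limma adjusted p = 0.000769), and sbt-1, which encodes a chaperone of a neuropeptide convertase, rose to 6.82 ± 1.31 against 4.25 ± 0.270 CPM (adjusted p = 0.0109). The summed level of the neuronal markers at 24 h was 205.7 to 228 CPM on auxin and 190.6 to 199 CPM on ethanol. Of 4 listed hypodermal markers, the collagen gene sqt-3 rose at 16 h (4.12 ± 1.24 against 2.75 ± 0.542 CPM, n = 4 each, adjusted p = 0.0489), a call that was lost with the block, and the nuclear receptor gene nhr-23 fell at 24 h (52.3 ± 4.35 against 70.4 ± 1.70 CPM, n = 3 each, adjusted p = 0.00598). The only sperm marker listed at 24 h, spe-41, rose to 10.3 ± 3.19 against 4.16 ± 1.49 CPM (n = 3 each, adjusted p = 0.0166). No marker of these tissues was called at 8 h. The part of these shifts in the calls of the pathway genes was not tested.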
